A study of Mus musculus with 28 samples.

Results

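Germ-free (GF) mice, which live without microbes, were compared with specific-pathogen-free (SPF) mice, which carry a gut flora, in groups that, per the labels, both received an antibody against CD3 (aCD3). All 12 such libraries among the 28 of the series were taken, 6 GF aCD3 and 6 SPF aCD3, assigned by the colonisation and treatment in the labels. Each library holds RNA of CD4+ T cells sorted from small intestinal lamina propria, gated as live, CD45+, CD90.2+, TCRb+ and CD4+. All mice, controls included, carried the T-bet-ZsGreen allele, a fluorescent reporter of the T helper 1 regulator T-bet, so no group is free of the reporter. The GF aCD3 group held 1 female and 5 male libraries and the SPF aCD3 group 3 female and 3 male. The labels name the libraries by sex and number (F1, M3) and do not state that each came from a mouse of its own, so p-values measure the spread between these libraries. The same contrast under an isotype control antibody, with 10 GF and 6 SPF libraries, is given beside it. The protocol names a total RNA library kit and a label names polyA RNA, and which holds was not settled here. Antibody dose, time after injection, age and background strain were not used here.

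CD3 is the signalling part of the T cell receptor, and an antibody that binds it activates T cells whatever antigen they recognise. In the small intestine, aCD3 is known to bring up CD4+ T cells that make the anti-inflammatory cytokine IL-10. The lamina propria also houses Th17 cells, which make IL-17 and IL-22, cytokines that act on the epithelium and its antimicrobial defence, and whose number in mice is known to depend on particular gut microbes. The libraries are bulk samples of a sorted population, so fewer cells of a type and less RNA per cell cannot be told apart.

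Levels are given as scaled TPM, a transcript's length-adjusted share of its library divided by a size factor so that the median gene is level across the 12 libraries. Differences are log2 fold changes of GF over SPF on the log2(scaled TPM + 1) scale, where the added 1 shrinks the differences of weakly expressed genes, each ± its standard error. A gene was called when limma's p-value, adjusted by Benjamini-Hochberg over the 11071 genes tested, was under 0.05. Reads in genes numbered 7804787 to 17793828 per GF library and 8452635 to 12081480 per SPF library. For a gene spanning 10 kb, 3 reads were worth 0.132 to 0.228 TPM in the GF libraries and 0.128 to 0.188 TPM in the SPF libraries, a floor that covers counting error only. Shorter genes have a higher floor. T cell markers were high throughout: 7 defining genes, among them Cd3e and Cd4, summed to 1160 to 1647 scaled TPM in the GF and 1558 to 1818 in the SPF libraries.

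The 6 libraries labelled GF aCD3 were not alike. Those labelled F1, M3 and M4 lay close to the GF isotype libraries, at a mean absolute log2 difference per gene of 0.202, 0.209 and 0.196 from the GF isotype mean. The GF isotype libraries themselves lay 0.186 to 0.235 from that mean. From the SPF aCD3 mean the same 3 libraries lay 0.593, 0.587 and 0.597 away. The libraries labelled M1, M2 and M5 had the opposite position, at 0.288, 0.248 and 0.235 from the SPF aCD3 mean and 0.509, 0.521 and 0.542 from the GF isotype mean. The labels give all 6 the same treatment, and whether F1, M3 and M4 come from mice that received aCD3 and responded to it was not tested. The main results below are for all 6 libraries labelled GF aCD3, with values without F1, M3 and M4 beside them. The female GF library is one of the 3. The column names number the GF libraries M1 to M3 as 31 to 33, those of M4, M5 and F1 as 52 to 54, and the SPF libraries as 7 to 12. The number block and the flora therefore cannot be told apart, although M1 and M2 share a number block with M3, and M5 shares one with F1 and M4.

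**Figure D1:**
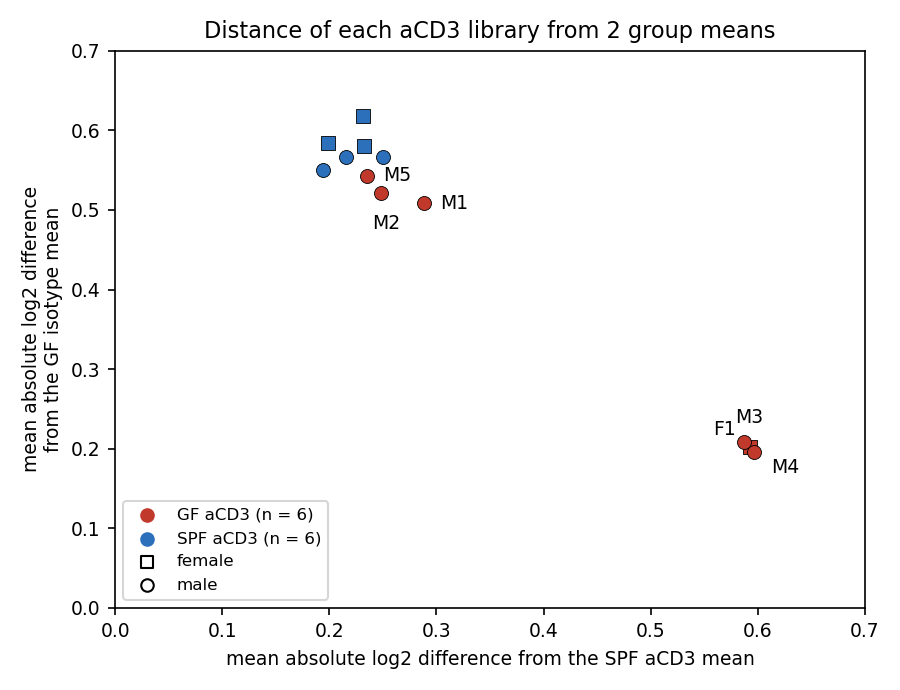
Each aCD3 library by its mean absolute log2 difference per gene from the SPF aCD3 mean (x axis) and from the GF isotype mean (y axis), both on the log2(scaled TPM + 1) scale over the 11071 genes tested. Red marks GF (n = 6) and blue SPF (n = 6), squares are female and circles male. GF libraries F1, M3 and M4 sit at 0.587 to 0.597 on the x axis, and M1, M2 and M5 at 0.235 to 0.288, near the SPF libraries at 0.194 to 0.25.

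Between the GF and SPF aCD3 groups 949 genes were called (8.57% of those tested), 457 higher in GF (4.13%) and 492 lower (4.44%), around a median of all genes of -0.02. This count moved with single libraries, from 250 without M4 to 2819 without M5 and 304 to 378 without any 1 SPF library, and it was 7 among males. Leaving out F1, M3 and M4 left 135 calls (1.22%), 52 higher (0.47%) and 83 lower (0.75%). In 541 of the 949 genes all 6 GF libraries lay beyond all 6 SPF libraries, 280 above and 261 below. Among all genes tested the groups were apart in this way in 678 (6.12%), 352 with GF above (3.18%) and 326 with GF below (2.94%). M1, M2 and M5 alone were apart from SPF in 1020 genes (9.21%), 519 above (4.69%) and 501 below (4.53%). Genes with exactly 3 GF libraries beyond the SPF range made up 29.5% of those tested, 3267 genes, and in 2450 of these the 3 libraries were F1, M3 and M4. Of the 949 called genes 12 had exactly 3 GF libraries beyond the SPF range, and in 5 of these the 3 were F1, M3 and M4. Most calls did draw on these libraries together with others. F1, M3 and M4 lay beyond every SPF library in 97.8%, 98.4% and 98.5% of the called genes, and M1, M2 and M5 in 90.9%, 86.9% and 72.6%. The spread was wider in GF, with a median standard deviation of 0.283 on the log2 scale over the 6 GF libraries, 0.163 over the SPF libraries and 0.141 over M1, M2 and M5.

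**Figure D2:**
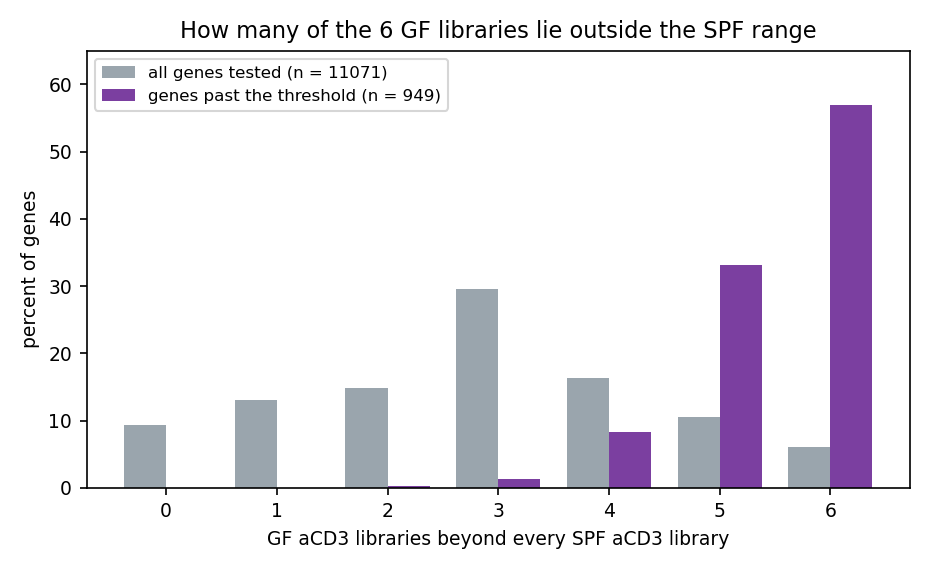
Percent of genes (y axis) by how many of the 6 GF aCD3 libraries lie beyond every SPF aCD3 library in the direction of the group difference (x axis). Grey bars are all 11071 genes tested and purple bars the 949 called genes. Of the called genes 57% have all 6 GF libraries beyond the SPF range, against 6.12% of all genes, and the grey peak at 3 libraries holds 29.5% of the genes.

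Among the 8 genes with the widest gap below SPF were Mt1, Mt2 and, with the widest of all, Cxcl3. Cxcl3, a neutrophil-attracting chemokine at chr5:90786101-90788093, ranged from 0 to 3.17 scaled TPM in GF (median 0.965) and from 19.9 to 40.9 in SPF (median 32.8). No library of one group reached the other, and the difference was -3.98 ± 0.37 (adjusted p = 0.000731). M1, M2 and M5 alone still gave -3.17 ± 0.25 (adjusted p = 0.00152). Ccl20, the chemokine that draws CCR6-bearing cells, at chr1:83116766-83119167, ranged from 0 to 7.6 scaled TPM in GF (median 0.961) and from 10.9 to 44 in SPF (median 33). It was lower in GF by a log2 fold change of -3.84 ± 0.54 (adjusted p = 0.00277), with M5 the highest GF library and again no overlap, and by -3.76 ± 0.68 (adjusted p = 0.0341) with M1, M2 and M5 alone. Of 9 chemokine genes tested from a list of 11, Ccl20, Cxcl3 and Ccl4 were lower, Xcl1 was higher and 5 were not called, beside 4.44% of all genes called lower and 4.13% higher. The median of the list was -1.18, and -0.70 without F1, M3 and M4. Ccl4, a chemokine that attracts T cells and macrophages, overlapped the SPF range in 1 GF library, at 30.3 to 433 scaled TPM against 379 to 594 (log2 fold change -2.12 ± 0.60, adjusted p = 0.0498), and it was not called without the 3 libraries (-0.70, adjusted p = 0.145).

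In the Th17 and IL-22 program most genes were lower in GF. Of 15 genes tested from a list of 16, 9 were lower, 1, Rora, was higher and 5 were not called, beside 4.44% of all genes called lower and 4.13% higher. The median was -1.10 against -0.02 for all genes. Without F1, M3 and M4 the median was -1.04 and 2 genes of the list were called, both lower. Il22, at chr10:118204964-118210046, ranged from 0.292 to 7.45 scaled TPM in GF (median 3.32) and from 12.3 to 68 in SPF (median 39.3). The groups did not overlap (log2 fold change -3.15 ± 0.48, adjusted p = 0.00424), and M1, M2 and M5 alone gave -2.84 ± 0.50 (adjusted p = 0.0326). Reads of Il22 cannot be fully told from those of its near-identical copy Iltifb, which was lower as well (-1.29, adjusted p = 0.0493). Il17a, an effector cytokine of Th17 cells, was at 4.13 to 81.5 scaled TPM in GF (median 59.9) and 124 to 553 in SPF (median 420). All 6 GF libraries were below all SPF libraries (log2 fold change -3.27 ± 0.68, adjusted p = 0.0197), though without M4, or with M1, M2 and M5 alone (adjusted p = 0.0549), Il17a was not called. Its relative Il17f was at 0.278 to 8.67 scaled TPM in GF and 8.56 to 47.2 in SPF (log2 fold change -3.36 ± 0.51, adjusted p = 0.00387). Here the GF library M5 passed the lowest SPF library, M2, and the other 5 GF libraries, at or under 2.81, did not. With M1, M2 and M5 alone Il17f was not called (-2.71 ± 0.59, adjusted p = 0.0674). Ltb4r1, the receptor for leukotriene B4, was at 0.748 to 7.76 scaled TPM in GF and 9.38 to 29.3 in SPF (log2 fold change -2.01 ± 0.41, adjusted p = 0.018), and it was not called without F1, M3 and M4 (-1.42, adjusted p = 0.102).

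Sex moved with part of this program, since the 3 female SPF libraries had the 3 highest list means, 4.78, 4.80 and 4.97 on the log2 scale, and the 3 male SPF libraries had 4.49, 3.62 and 4.23. The GF libraries were below all of these, at 2.21 in F1 and 2.91 to 3.55 in the 5 males. Among males alone the differences were -2.13 ± 0.39 for Il22 (adjusted p = 0.0801), -2.09 ± 0.60 for Il17a (adjusted p = 0.219) and -3.64 ± 0.80 for Ccl20 (adjusted p = 0.121). With a sex term over the full groups, 33 of the 35 genes named by rule stayed called or uncalled as before, Il22, Il17a and Ccl20 among them. That term rests on 1 GF female, F1, which lay near the isotype libraries. How much of the larger differences of the full groups goes with sex was not tested.

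The metallothioneins Mt1 and Mt2, small proteins that bind zinc and copper, were lower in GF in every library. Mt1, at chr8:94179089-94180327, ranged from 1.86 to 17.2 scaled TPM in GF (median 10.5) and from 69 to 117 in SPF (median 106). The groups were 1.94 apart at their nearest libraries on the log2 scale (log2 fold change -3.44 ± 0.41, adjusted p = 0.00249; -2.61 ± 0.19, adjusted p = 0.00152, with M1, M2 and M5 alone). Mt2, its neighbour at chr8:94172618-94173567, was at 1.04 to 11.8 scaled TPM in GF (median 5.18) and 22.5 to 57.6 in SPF (median 44.3; log2 fold change -3.08 ± 0.51, adjusted p = 0.00704; -1.90 ± 0.27, adjusted p = 0.0206, with M1, M2 and M5 alone). Another member, Mt3, was lower too but overlapped, at 0 to 3.64 against 2.31 to 9.62 scaled TPM (log2 fold change -1.79 ± 0.46, adjusted p = 0.0389; -0.82, adjusted p = 0.281, without the 3). In mean reads per library Mt1, Mt2 and Mt3 had 23.7, 9.33 and 3.67 in GF and 194, 65.3 and 16 in SPF. The low GF values of Mt2 and Mt3 thus rest on few reads. Of the list of 8, 3 were lower and 0 higher, beside 4.44% of all genes called lower. The other 5, zinc transporters and partners, were not called, so the list's median of -0.13, or 0.19 on unscaled TPM, does not follow its metallothioneins. Under isotype most libraries of either flora were low in both genes, with medians of 3.06 (GF) and 2.22 (SPF) scaled TPM for Mt1 and 0 and 1.03 for Mt2, although the highest GF isotype values were 22.9 and 15.4.

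The stretches before the start sites of these 4 genes are shown because the genes had among the largest differences in GF, a choice made after their values were seen, and because metal-responsive and NF-kB motifs are well known for metallothionein and chemokine promoters. Sequences are RefSeq's, build GRCm38.p6, plus strand, the 250 bases before the annotated start, with motif matches in capitals. For Mt1 (chr8:94178839-94179088) and Mt2 (chr8:94172368-94172617) the capitals mark the core metal response element, TGCACNC or TGCGCNC on either strand, found in 21.4% of 32851 mouse promoters of this length. Within this window Mt1 held 1 match and Mt2 held 3. Letters farther upstream or past the annotated start were not searched, so these are not counts for the whole promoters. For Cxcl3 (chr5:90785851-90786100) and Ccl20 (chr1:83116516-83116765) they mark the NF-kB consensus on either strand, found in 7.25% of promoters. Cxcl3 held 2 overlapping matches in 1 stretch and Ccl20 held 1. A match is a description of letters and not a bound site.
Mt1: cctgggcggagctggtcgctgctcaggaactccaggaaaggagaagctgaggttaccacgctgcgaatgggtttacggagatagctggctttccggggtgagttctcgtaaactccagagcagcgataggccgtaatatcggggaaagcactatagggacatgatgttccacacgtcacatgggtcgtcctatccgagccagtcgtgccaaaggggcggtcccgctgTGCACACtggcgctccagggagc
Mt2: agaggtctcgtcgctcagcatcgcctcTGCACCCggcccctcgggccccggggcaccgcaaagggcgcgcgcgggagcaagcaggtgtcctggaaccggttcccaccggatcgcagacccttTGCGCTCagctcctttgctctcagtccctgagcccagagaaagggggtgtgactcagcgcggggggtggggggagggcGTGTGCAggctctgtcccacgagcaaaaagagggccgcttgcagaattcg
Cxcl3: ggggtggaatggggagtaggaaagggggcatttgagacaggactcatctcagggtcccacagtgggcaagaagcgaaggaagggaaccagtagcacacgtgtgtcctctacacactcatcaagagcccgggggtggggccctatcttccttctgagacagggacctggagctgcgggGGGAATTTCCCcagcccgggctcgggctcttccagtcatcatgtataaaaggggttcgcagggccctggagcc
Ccl20: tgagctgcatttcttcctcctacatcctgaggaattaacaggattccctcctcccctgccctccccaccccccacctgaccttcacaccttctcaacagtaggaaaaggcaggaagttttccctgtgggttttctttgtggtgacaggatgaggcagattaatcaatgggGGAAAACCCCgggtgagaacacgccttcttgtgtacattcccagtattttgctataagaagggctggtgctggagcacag

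Further genes lower in all 6 GF libraries came from varied groups. Hlx, a homeobox transcription factor expressed in activated Th1 cells, at chr1:184727145-184732493, was at 0 to 1.29 scaled TPM in GF (median 0.291) and 4.31 to 9.55 in SPF (median 7.24). Its difference of -2.52 ± 0.20 (adjusted p = 0.000283) was as large with M1, M2 and M5 alone (-2.56 ± 0.21, adjusted p = 0.00152) and was called among males alone (-2.85 ± 0.17, adjusted p = 0.00117). Tbx21, which encodes T-bet itself and underlies the reporter, was not called, at 51.9 to 73.4 scaled TPM in GF and 44.3 to 59.4 in SPF (log2 fold change 0.14 ± 0.10, adjusted p = 0.326), though it was called higher on unscaled TPM (0.53, adjusted p = 0.0317) and on TPM without Rn45s and histones (0.43, adjusted p = 0.0289). Gja1, a gap junction channel gene, was at 0 to 1.67 scaled TPM in GF and 4.5 to 8.79 in SPF (log2 fold change -2.18 ± 0.26, adjusted p = 0.00249). Emp1, an epithelial membrane protein gene, was at 7.7 to 21.5 scaled TPM in GF and 36.6 to 48.1 in SPF (log2 fold change -1.68 ± 0.18, adjusted p = 0.00212). Ermn, which encodes an actin-binding protein best known from oligodendrocytes, was at 0 to 2.99 scaled TPM in GF and 6.37 to 22.9 in SPF (log2 fold change -2.79 ± 0.41, adjusted p = 0.00336). These 4 genes, unlike most calls, also passed with M1, M2 and M5 alone (Ermn -2.05 ± 0.40, adjusted p = 0.0466).

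The antiviral membrane protein gene Ifitm3 showed a graded pattern. It was at 2.46, 6 and 8.57 scaled TPM in M3, M4 and F1, at 44.6, 60.3 and 92.4 in M1, M2 and M5, and at 172 to 319 in SPF. All 6 were below the SPF range (log2 fold change -3.63 ± 0.73, adjusted p = 0.0169), and with M1, M2 and M5 alone the difference was -1.94 ± 0.26 (adjusted p = 0.0172). Of 4 genes of its family tested, Ifitm3 and Ifitm1 were lower and 2 were not called, and Ifitm1 lost its call without the 3 libraries (adjusted p = 0.209). Of 17 interferon-stimulated genes tested, 2 were lower, Oas1a (-1.57 ± 0.37, adjusted p = 0.0308) and Oasl2 (-1.71 ± 0.34, adjusted p = 0.0175), both antiviral sensors or relatives of them, and all 17 values were negative with a median of -1.05. The 2 calls are 11.8% of the list, beside 8.57% of all genes called and 4.44% called lower. Without F1, M3 and M4 that median was -0.36 and no interferon-stimulated gene was called.

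**Figure D3:**
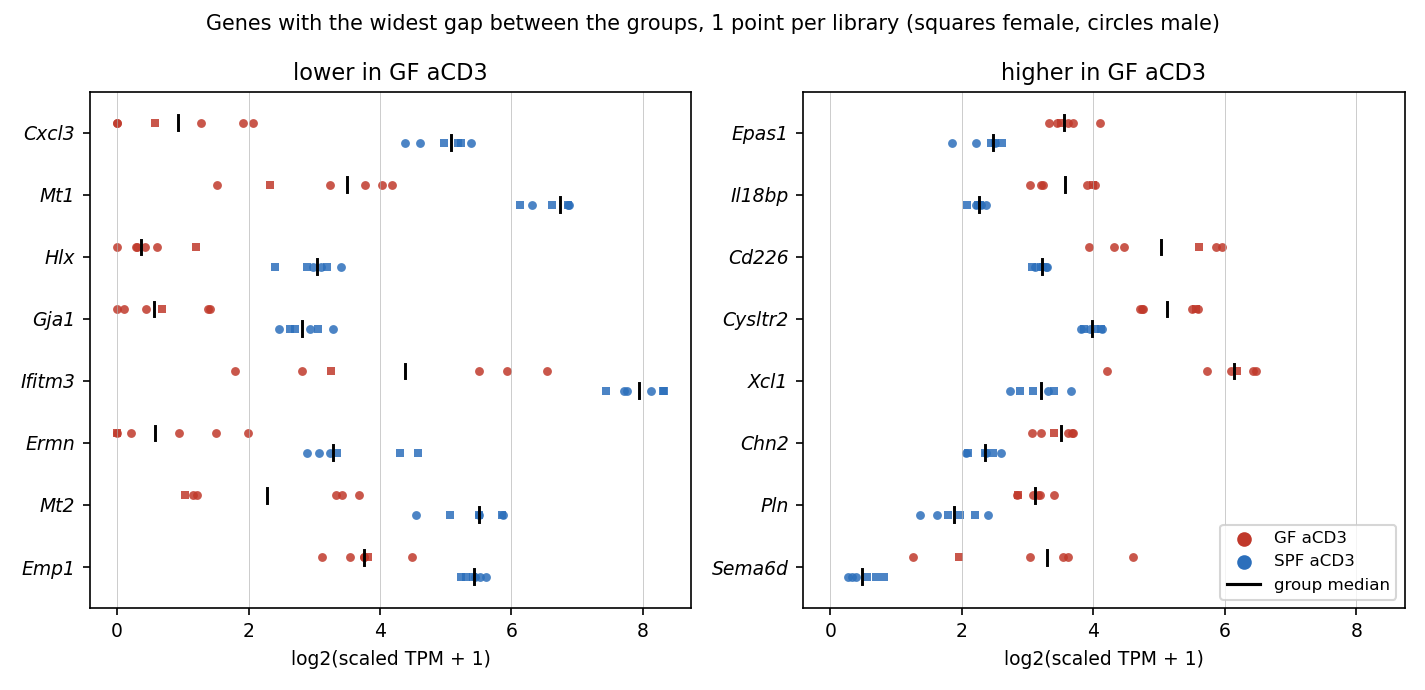
The 8 genes lower (left) and the 8 higher (right) in GF aCD3 with the widest gap between the nearest libraries of the groups, on the log2(scaled TPM + 1) scale (x axis). Each point is 1 library (red GF, n = 6, blue SPF, n = 6; squares female, circles male) and black ticks are group medians. No GF library meets an SPF library in any of the 16 genes, and the red points of Ifitm3, from 2.46 to 92.4 scaled TPM, are the most spread on the left.

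Genes of cell traffic were lower in GF in part. In a list of 14 gut homing and residency genes 5 were lower, 0 were higher and 9 were not called, and the 5 had no overlap between groups, where 4.44% of all genes were called lower and 2.94% were lower without overlap. The median of the list was 0.06, or 0.44 on unscaled TPM, and -0.29 without F1, M3 and M4. Itgb7, the beta 7 integrin chain of the gut-homing receptor, was at 68.2 to 103 scaled TPM in GF and 105 to 143 in SPF (log2 fold change -0.59 ± 0.12, adjusted p = 0.0173). Gpr15, a receptor that guides T cells to the gut, was at 2.59 to 9.13 against 9.42 to 21.6 scaled TPM (log2 fold change -1.32 ± 0.26, adjusted p = 0.0166). Gpr18, Selplg and Cxcr4 were the others, and of the 5 Gpr18 alone passed without F1, M3 and M4 (-0.85, adjusted p = 0.0326). Without these libraries Itgb7, Gpr15, Selplg and Cxcr4 had log2 fold changes of -0.64, -1.03, -0.39 and -0.73, against -0.59, -1.32, -0.38 and -1.94 with all libraries. On unscaled TPM Itgb7 (-0.20, adjusted p = 0.275), Gpr18 (-0.32, adjusted p = 0.177) and Selplg (0.01, adjusted p = 0.952) were not called. Of 11 genes tested from a list for naive and central memory cells, 4 were lower and 0 higher, none of the 4 overlapping, and S1pr1 alone was called without F1, M3 and M4. Igfbp4 had -2.58 with all libraries and -2.14 (adjusted p = 0.0725) without the 3. Satb1 had -1.20 and -0.48 (adjusted p = 0.116). S1pr1, the receptor by which T cells leave tissue, was at 15.2 to 40.3 scaled TPM in GF and 59.6 to 116 in SPF (log2 fold change -1.79 ± 0.24, adjusted p = 0.00249; -1.48, adjusted p = 0.0326, with M1, M2 and M5 alone). Klf2, the factor that drives S1pr1, was at 39.3 to 197 against 236 to 450 scaled TPM (log2 fold change -1.67 ± 0.37, adjusted p = 0.025; -1.12, adjusted p = 0.0717, without the 3). Icos, a costimulatory receptor, was at 117 to 202 scaled TPM in GF and 239 to 265 in SPF (log2 fold change -0.74 ± 0.11, adjusted p = 0.00436; -0.63, adjusted p = 0.0329, without the 3), and the groups did not overlap.

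Genes higher in GF included receptors, nuclear factors and another chemokine. Xcl1, lymphotactin, at chr1:164931644-164935522, was at 17.4 to 87.6 scaled TPM in GF (median 69.6) and 5.62 to 11.7 in SPF (median 8.2). Every GF library exceeded every SPF library (log2 fold change 2.67 ± 0.34, adjusted p = 0.00249; 2.26 ± 0.42, adjusted p = 0.0361, with M1, M2 and M5 alone). Its isotype levels were high in both floras, with medians of 84.6 scaled TPM in GF and 69.4 in SPF. GF aCD3 M2 and M5, at 51.8 and 17.4, lay below, as did all SPF aCD3 libraries, the lowest isotype libraries of both floras, at 55.2 and 56.5. Cd226, a costimulatory receptor that competes with TIGIT for ligands, was at 14.3 to 61.2 scaled TPM in GF aCD3 and 7.41 to 8.79 in SPF aCD3, beside isotype medians of 54.3 in GF and 49.6 in SPF. Within GF aCD3 it was at 47.5, 61.2 and 57.1 in F1, M3 and M4 and 21.2, 18.9 and 14.3 in M1, M2 and M5, the latter 3 below the lowest isotype libraries (47.1 in GF and 42.1 in SPF). The difference was 1.82 ± 0.33 (adjusted p = 0.0111) with all libraries and 1.03 ± 0.11 (adjusted p = 0.0106) without F1, M3 and M4. Nr3c1, the glucocorticoid receptor gene, was at 28.1 to 111 scaled TPM in GF aCD3 and 17.2 to 21 in SPF aCD3 (log2 fold change 1.53 ± 0.32, adjusted p = 0.0187; 0.79 ± 0.10, adjusted p = 0.0159, without the 3 libraries), beside isotype medians of 82.6 and 75.9. Tnfsf14, which encodes the TNF family cytokine LIGHT, was at 8.05 to 44.3 against 3.39 to 6.82 scaled TPM (log2 fold change 1.87 ± 0.35, adjusted p = 0.0133) and was not called without the 3 libraries (1.11 ± 0.23, adjusted p = 0.0623).

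A further set, like Xcl1, Cd226 and Nr3c1, was called with M1, M2 and M5 alone. Gata3, the regulator of type 2 helper cells that is also active in gut regulatory cells, was at 43.9, 68.2, 65.6, 70.3, 46.6 and 37.1 scaled TPM in GF F1 and M1 to M5. In SPF it was at 21.9 to 28.6. The difference was 1.09 ± 0.16 (adjusted p = 0.00336) and 1.13 ± 0.18 (adjusted p = 0.0314) with M1, M2 and M5 alone. Of 10 type 2 genes tested, Gata3 alone was called, or 10%, near the 8.57% of all genes. Epas1, the hypoxia-inducible factor 2 alpha gene, was at 8.98 to 16.2 scaled TPM in GF and 2.59 to 5.11 in SPF (log2 fold change 1.26 ± 0.15, adjusted p = 0.00249). Pln, the gene of the calcium pump regulator phospholamban, was at 6.16 to 9.6 against 1.57 to 4.29 (1.20 ± 0.17, adjusted p = 0.00277), and Chn2, a Rac-inactivating protein's gene, was at 7.4 to 11.9 against 3.18 to 5.01 scaled TPM (1.12 ± 0.13, adjusted p = 0.00249). Il18bp, the soluble inhibitor of IL-18, was at 7.24 to 15.2 against 3.22 to 4.14 scaled TPM (1.32 ± 0.18, adjusted p = 0.00249; 0.90 ± 0.08 without F1, M3 and M4). Cysltr2, a leukotriene receptor gene, was at 25.3 to 47.2 against 13.1 to 16.5 scaled TPM (1.16 ± 0.18, adjusted p = 0.00436; 0.75 ± 0.08 without the 3). In F1, M3 and M4 Il18bp was at 15, 13.9 and 15.2 scaled TPM and in M1, M2 and M5 at 7.24, 8.22 and 8.44. Cysltr2 was at 46.4, 44.3 and 47.2 in the first 3 and at 25.3, 25.9 and 25.6 in the others. These 6 genes were each called with M1, M2 and M5 alone, with adjusted p between 0.00278 (Il18bp) and 0.0361 (Pln). Sema6d, a semaphorin gene, had the largest difference after Xcl1, at 1.38 to 23.4 against 0.202 to 0.765 scaled TPM (log2 fold change 2.49 ± 0.46, adjusted p = 0.0119). It was not called with M1, M2 and M5 alone (2.06 ± 0.42, adjusted p = 0.0522).

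A further 5 of the 10 genes with the highest log2 fold changes were close to the threshold. Nr4a3, an early response gene of T cell receptor signalling, H60b, a ligand of the receptor NKG2D, Orm2, an acute phase protein gene, Trmt61b, a tRNA methyltransferase gene, and Tespa1, a T cell signalling adaptor, had log2 fold changes of 1.62 ± 0.38, 1.55 ± 0.41, 1.57 ± 0.36, 1.80 ± 0.51 and 1.73 ± 0.49, with adjusted p between 0.0281 (Orm2) and 0.0484 (Trmt61b). None of them was called without F1, M3 and M4, where the values were 0.60 (Trmt61b and Tespa1) to 0.87 (Orm2), and each lost its call on leaving out any single one of those 3 libraries, as well as on leaving out most of the single SPF libraries. The log2 fold changes in those fits were 1.33 (H60b) to 1.89 (Trmt61b), with adjusted p from 0.052 (Nr4a3) to 0.112 (Trmt61b and Tespa1). Orm2 has near-identical neighbours that can share its reads, and Orm3 was higher as well (1.05, adjusted p = 0.0102). A list of 8 genes held the aryl hydrocarbon receptor, a sensor of dietary and microbial ligands, and its targets. Of 6 tested, Cyp1b1 (1.36 ± 0.23, adjusted p = 0.00761), Ahrr (0.86 ± 0.16, adjusted p = 0.0113) and Asb2 (0.55 ± 0.13, adjusted p = 0.0339) were higher in GF and 0 were lower, beside 4.13% of all genes called higher, and the receptor gene Ahr itself was not called (0.01, adjusted p = 0.927). Cyp1b1 was at 5.32 to 13.1 scaled TPM in GF and 2.3 to 6.15 in SPF, with 1 GF library inside the SPF range, and was called without F1, M3 and M4 as well (1.59, adjusted p = 0.0202). Ahrr (0.60, adjusted p = 0.0912) and Asb2 (0.51, adjusted p = 0.198) were not, and the median of the list went from 0.56 to 0.31.

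The genes most often read after aCD3 divided the GF libraries. Il10 was at 72.2, 77.8 and 107 scaled TPM in GF F1, M3 and M4, at 393, 573 and 662 in M1, M2 and M5, and at 633 to 834 in SPF. The first 3 were at isotype levels (GF isotype 32.6 to 131), and the difference over all libraries, -1.80 ± 0.55, was not called (adjusted p = 0.0588; -0.48 ± 0.16, adjusted p = 0.197, without the 3). Il10 was called lower on unscaled TPM (-1.40, adjusted p = 0.0345), with voom (-1.79, adjusted p = 0.0436), with array weights (-1.69, adjusted p = 0.0402), with all 28 libraries and a sex term (-1.92, adjusted p = 0.0039), and without M1, M2 or M5 (adjusted p = 0.0445, 0.0295 and 0.019). Lag3, an inhibitory receptor of activated and IL-10-making T cells, was at 7.4, 12.2 and 9.34 scaled TPM in F1, M3 and M4, at 485, 441 and 554 in M1, M2 and M5, and at 549 to 878 in SPF (log2 fold change -3.32 ± 1.13, adjusted p = 0.0709; -0.54 ± 0.14, adjusted p = 0.109, without the 3). GF isotype libraries had 3.98 to 14.4. Lag3 was called lower on unscaled TPM (-2.94, adjusted p = 0.0414), with all 28 libraries and a sex term (-3.52, adjusted p = 0.00351), and without M1, M2 or M5 (adjusted p = 0.0431, 0.0379 and 0.0287). Ifng, the Th1 cytokine, was lower in all 6 GF libraries, at 131 to 255 scaled TPM against 291 to 415 (log2 fold change -0.89 ± 0.19, adjusted p = 0.0226). It was not called without F1, M3 and M4 (-0.48 ± 0.12, adjusted p = 0.0984), and leaving out any single one of those 3, or SPF F2 or F3, also ended the call at a similar difference (-0.80 to -0.87, adjusted p from 0.0502 to 0.0552). Gzmb, a cytotoxic granule protease gene, was lower without overlap, at 859 to 3459 against 3753 to 7117 scaled TPM (log2 fold change -1.69 ± 0.37, adjusted p = 0.0226; adjusted p = 0.141 without the 3). Havcr2, which encodes the inhibitory receptor TIM-3, was at 0.357 to 32.4 scaled TPM in GF and 31.8 to 38.8 in SPF (log2 fold change -2.72 ± 0.75, adjusted p = 0.0464; -0.92 ± 0.26, adjusted p = 0.136, without the 3), and M5 lay inside the SPF range. Leaving out F1, M3, M4 or any 1 SPF library ended the call of Havcr2 (-2.32 to -2.75, adjusted p from 0.0787 to 0.105). Foxp3, the regulatory T cell factor, was at 9.82 to 64 scaled TPM in GF and 32.1 to 51.1 in SPF (-0.58 ± 0.39, adjusted p = 0.273), and its sign turned without the 3 libraries (0.24).

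The mitosis and replication lists repeated that division and gave no call. Mki67, a marker of cycling cells, was at 35.9, 114 and 51.2 scaled TPM in F1, M3 and M4, at 358, 436 and 326 in M1, M2 and M5, and at 299 to 380 in SPF (log2 fold change -1.19 ± 0.57, adjusted p = 0.147; 0.12 ± 0.10, adjusted p = 0.627, without the 3). Of 19 mitosis genes tested 0 were called in either direction, beside 8.57% of all genes called and 4.44% called lower, with 19 negative values and a median of -1.32, which was -0.06 without F1, M3 and M4. Of 22 replication genes 0 were called as well, with a median of -1.01 and of -0.04 without the 3. Histone transcripts, most of which lack a polyA tail and whose share therefore depends on the unsettled kind of library, took 5.67, 7.79 and 6.71 percent of summed TPM in F1, M3 and M4, 23.8, 23.4 and 26.3 percent in M1, M2 and M5, and 24.1 to 27.1 percent in SPF. The group means were 15.6 ± 9.81 percent (SD, n = 6) and 25.7 ± 1.34 percent (SD, n = 6), a difference of -10.1 percentage points (two-sided exact permutation test, p = 0.0173, adjusted over 2 shares p = 0.0346), and leaving out any 1 SPF library ended the call (adjusted p from 0.121 to 0.156). Without the 3 libraries it was -1.21 percentage points (exact permutation p adjusted over the same shares = 0.429). As single genes, 3 of 76 histone genes tested were called lower and 0 higher (3.95%, beside 8.57% of all genes). Their median was -1.49, and -0.26 without the 3 libraries. The ribosomal RNA gene Rn45s took 13.6 ± 1.36 and 13.1 ± 1.16 percent (SD, n = 6 each, exact permutation p = 0.487). Unscaled TPM shifted the median gene by 0.32 and turned the calls to 4059 higher and 262 lower, 93.9% higher against 48.2% on the scaled values. With Rn45s and the histones removed the shift was 0.25 and 93% of the calls were higher.

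**Figure D4:**
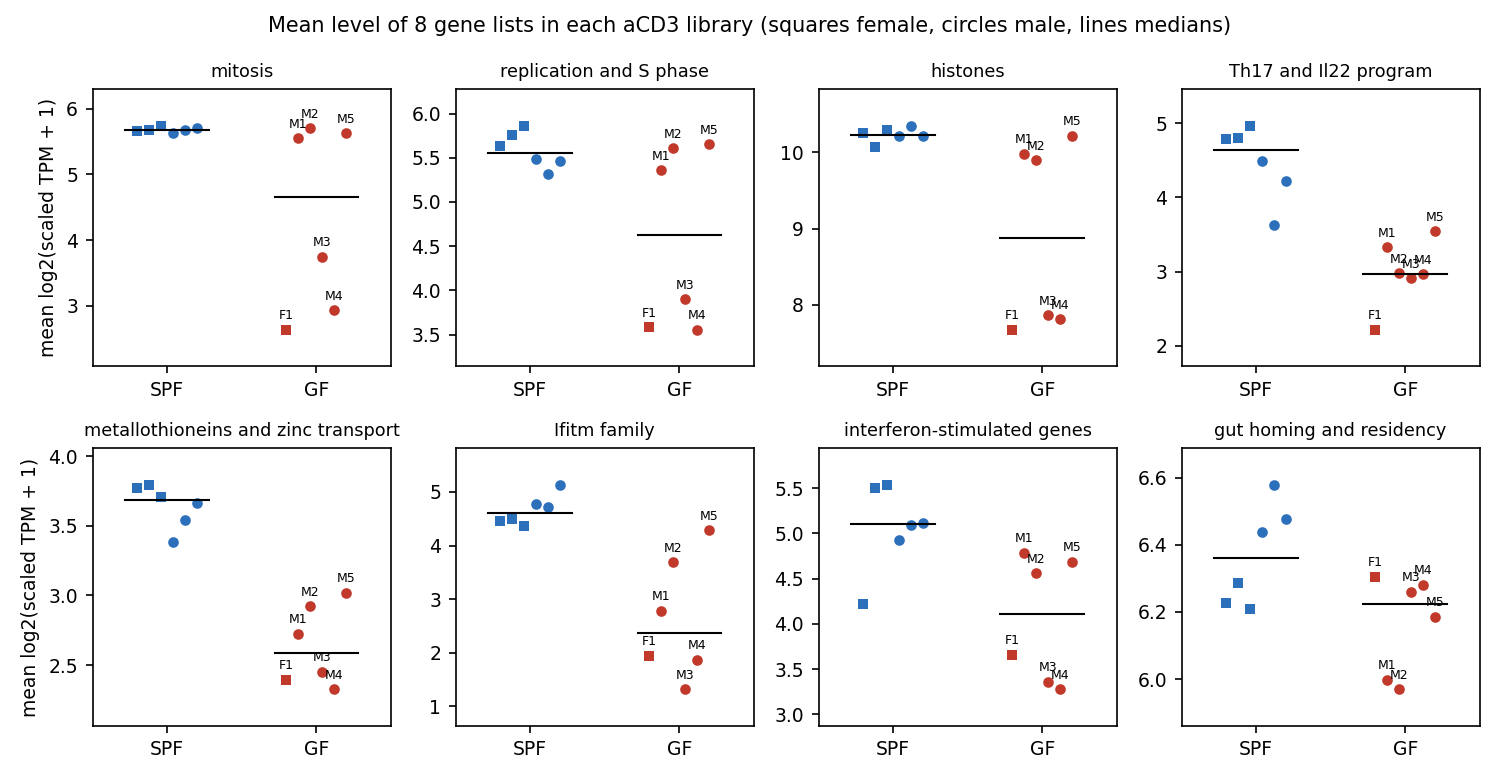
Mean log2(scaled TPM + 1) over the tested members of 8 gene lists (y axes, not starting at 0) in each aCD3 library, SPF in blue and GF in red with library names, squares female and circles male, lines at group medians. For mitosis genes M1, M2 and M5 sit at 5.55 to 5.71 beside SPF at 5.62 to 5.74, and F1, M3 and M4 at 2.64 to 3.75. For the Th17 and IL-22 program all 6 GF libraries sit at 2.21 to 3.55, below SPF at 3.62 to 4.97.

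The remaining lists varied. Of 10 costimulatory receptor genes 1 was higher and 3 lower (40% called, beside 8.57% of all genes), and of 11 co-inhibitory receptor genes 2 were higher and 2 lower (36.4%). Without F1, M3 and M4 the counts were 1 higher and 2 lower, and 0. Of the lower costimulatory genes, Cd28 (-0.10, adjusted p = 0.626) and Slamf6 (-0.09, adjusted p = 0.497) were not called on unscaled TPM. Of 24 early T cell receptor response genes, Fosl2 and Nr4a3 were higher and Nfkbia, the NF-kB inhibitor, was lower (-0.63 ± 0.14, adjusted p = 0.0257; -0.24, adjusted p = 0.207, on unscaled TPM), with a median of 0.11, and of these 3 Fosl2 alone was called without F1, M3 and M4. Fyn, a kinase gene of proximal T cell receptor signalling, was at 19.9 to 32.5 scaled TPM in GF and 14.4 to 18.7 in SPF, without overlap (0.62 ± 0.13, adjusted p = 0.0216; 0.36, adjusted p = 0.126, without the 3). Of 14 cytotoxic genes tested, Gzmb, Gzmk and Prf1 were lower and Klrk1 was higher (28.6% called). Of these, 0 were called without the 3 libraries. There Gzmk, Prf1 and Klrk1 had log2 fold changes of -2.15, -1.26 and 0.80, against -2.02, -0.93 and 1.04 with all libraries. The difference of Gzmb, -1.69 with all libraries, was smaller without the 3. Prf1 was not called on unscaled TPM (-0.55, adjusted p = 0.149). Of 11 regulatory T cell genes 0 were called, with a median of -0.68 that was -0.06 without F1, M3 and M4. Of 17 glycolysis and hypoxia genes, Hk2, the first enzyme of glycolysis, and Hif1a were lower and 0 higher, and neither was called without the 3, nor was Hk2 on unscaled TPM (-0.25, adjusted p = 0.134). Of 83 cytosolic ribosomal protein genes 3 were higher and 4 lower, or 8.43%, near the 8.57% of all genes. The 22 protocadherin gamma genes, which share their last exons and overlap on the genome, were all lower (median -0.99), and since their reads cannot be told apart they are nearer to 1 call than to 22.

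Under isotype the flora contrast gave 344 calls (3.11%), 152 higher in GF (1.37%) and 192 lower (1.73%). It used no library of the aCD3 contrast, and 85 genes were called in both, 8.96% of the aCD3 calls and 24.7% of the isotype calls. Of the 85, 83 had the same direction, 70 lower and 13 higher. Of the Th17 and IL-22 list, 6 of 15 genes were lower under isotype and 0 higher, with a median of -1.24. Il22 was lower by nearly as much, at 0.507 to 5.41 scaled TPM in GF isotype and 11.3 to 39 in SPF isotype (log2 fold change -2.89 ± 0.31, adjusted p = 0.00017). The difference between the treatments in that contrast, taken over all 28 libraries, was -0.31 ± 0.58 for Il22 (adjusted p = 0.742). Gja1 had -2.32 ± 0.26 under isotype (adjusted p = 0.000266) and a difference between treatments of 0.04 ± 0.40 (adjusted p = 0.949). Aqp3, a water and glycerol channel gene, had -1.64 ± 0.24 under aCD3 (adjusted p = 0.00342) and -1.08 ± 0.19 under isotype (adjusted p = 0.00737), and Calca, the gene of calcitonin and its related peptide, had 1.33 ± 0.28 (adjusted p = 0.0213) and 1.27 ± 0.29 (adjusted p = 0.0293). Without F1, M3 and M4 Aqp3 was called under aCD3 (-1.37, adjusted p = 0.0485) and Calca was not (1.32, adjusted p = 0.126). Aqp3 and Calca were chosen for mention after their values were seen.

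The test of the difference between treatments called 1476 genes (13.3%), 600 with the GF minus SPF difference higher under aCD3 (5.42%) and 876 with it lower (7.91%). Without F1, M3 and M4 it called 30, and which of the genes named below are among these is not given here. The fit takes 1 spread over all 28 libraries, while the GF aCD3 libraries are more spread than the isotype libraries. Its p-values can therefore understate the error. Mt1 and Hlx were among the 1476 genes called with all libraries. Mt1 had 0.67 ± 0.55 under isotype (adjusted p = 0.574), and the difference between treatments was -4.13 ± 0.75 (adjusted p = 0.00408). Hlx had -0.26 ± 0.22 under isotype (adjusted p = 0.599) and a difference between treatments of -2.38 ± 0.33 (adjusted p = 0.00091). Xcl1 had 0.24 ± 0.14 under isotype (adjusted p = 0.39) and a difference of 2.44 ± 0.35 (adjusted p = 0.0012). Cxcl3 was lower in GF under both antibodies, with 0 scaled TPM in all 10 GF isotype libraries and 0 to 5.03 in SPF isotype, and its difference between treatments, which depends on the pseudocount where a group is at 0, was -2.56 ± 0.51 (adjusted p = 0.00793). Gata3, at 0.44 ± 0.15 under isotype (adjusted p = 0.118), had a difference of 0.65 ± 0.22 that was not called (adjusted p = 0.0512).

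**Figure D5:**
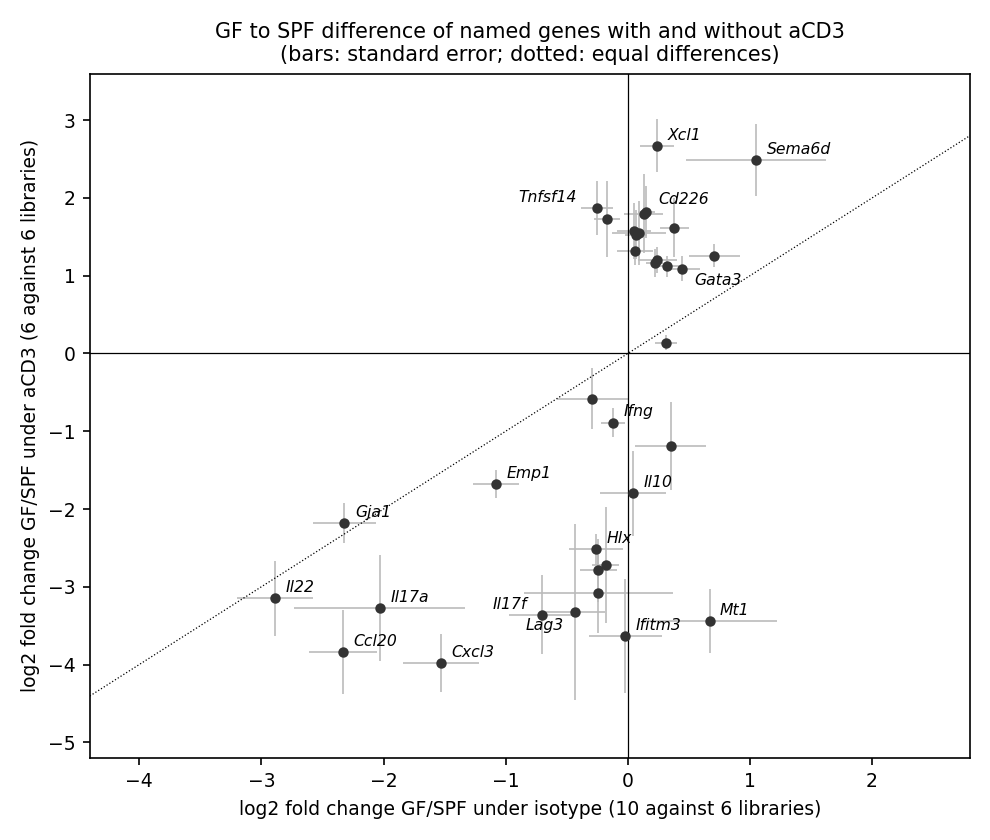
Log2 fold change of GF over SPF under aCD3 (y axis, 6 against 6 libraries) and under isotype (x axis, 10 against 6) for the 35 genes named by rule, as points with standard errors as bars. The dotted line marks equal differences. Gja1 (-2.18 and -2.32) and Il22 (-3.15 and -2.89) lie near it, while Xcl1 and Hlx, at 0.24 and -0.26 on the x axis, lie far from it.

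Markers of other cell types were not equal between the libraries. The 16 myeloid markers summed to 16.6 to 80.8 scaled TPM in GF and 74.5 to 176 in SPF, and 12 and 13 of them had medians under 1. By median the most abundant was Cd68, a lysosomal protein gene, which was lower in GF (5.96 to 60.9 against 62 to 129 scaled TPM, -2.04, adjusted p = 0.0426). The neutrophil genes S100a8 and S100a9 had medians of 0 in both groups and reached 7.28 and 3.18 scaled TPM in GF and 74.6 and 29.1 in SPF. Cybb, a myeloid oxidase subunit gene, was higher in GF (4.98 to 7.08 against 2.29 to 4.1 scaled TPM, 0.81, adjusted p = 0.00354). The 15 epithelial markers summed to 8.74 to 36.4 scaled TPM in GF and 10.2 to 56.1 in SPF, and the antimicrobial lectin genes Reg3b and Reg3g and the keratin gene Krt18 were lower in GF. The other 2 tested, Epcam (0.30, adjusted p = 0.227) and Krt19 (0.17, adjusted p = 0.784), were not called, and the enterocyte genes Fabp1, Fabp2 and Apoa4 reached 1.79, 14.7 and 5.07 scaled TPM in GF and 0, 0.67 and 0 in SPF. The CD8 genes summed to 2.67 to 13.5 against 11.9 to 27.1 scaled TPM. The 12 B and plasma cell markers summed to 73.8, 25.9 and 16.8 scaled TPM in GF M3, M4 and F1, 8.93 to 10.4 in M1, M2 and M5, and 4.93 to 13.7 in SPF, and Jchain, the joining chain gene of secreted antibodies, reached 63.9. Pancreatic acinar transcripts reached 714 scaled TPM in GF M3 and 142 in GF F1, against at most 35.8 in SPF, and 5 of 9 mast cell and eosinophil markers were at 0 in all 12 libraries. Cxcl3, Ccl20 and the metallothionein genes can also be made by such other cells, and the part of these cells in the differences was not tested.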

How the data were processed

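The deposited table holds TPM for 25124 genes, which the authors computed with HOMER's analyzeRepeats.pl over RefSeq genes of mm10 with transcripts condensed by gene, per the file headers. Aligner settings and use of strand were not given in the sources used here, so overlapping and antisense genes cannot be told apart. In 99.44% of rows the length equals the genomic span, introns included. Whole reads, recovered from TPM times length within a tolerance of 0.1 read, came out whole for at least 99.9% of the low values checked in each library. Another 26 columns match no sample and were not used. Libraries are named by the labels' sex letter and number.

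TPM was divided by median-of-ratios size factors over the 12 libraries (over 28 for the isotype and treatment contrasts), and log2(value + 1) was tested with limma 3.58.1 in R 4.3.3, with a trend on mean expression and no covariate. Genes with TPM of at least 1 in at least 6 of the 12 libraries were tested, 11071 in all. Shares of summed TPM were compared by a two-sided exact permutation test over 924 arrangements. Promoters were read from RefSeq. Figures and tables used Python 3.11.15. The test was tested on simulated data. There all libraries shared 1 profile, apart from the changed genes, and 1 small spread. The run therefore does not cover a group divided as the GF aCD3 libraries are.

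The groups compared and the gene lists were chosen with earlier results of these data known. Genes are named by rule: Il10, Lag3, Ifng, Tbx21, Gata3, Foxp3, Mki67 and Il22, the 10 highest and 10 lowest log2 fold changes called, the 8 widest gaps between groups in each direction, and up to 5 genes a list. Some genes and lists under this rule are not reported here. For the ranked genes a mean of 5 TPM and 30 reads in a group was required, and predicted, small RNA and sex-linked genes were left out. Alternatives were other scalings, pseudocounts, filters, a sex term, males only, a replicate block, array weights, voom on recovered reads, the number blocks of the GF libraries, and leaving out libraries. No 2 of the 28 libraries held identical values.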

Additional observations from a re-analysis of the deposited data

Results flagged for a closer look

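In GF aCD3 M5, Ccl20 was at 7.6 scaled TPM against 0 to 2.06 in the other 5 GF libraries, and Il17f was at 8.67 against 0.278 to 2.81, each far from the rest of its group. These were 2 of 76 sets of values, where chance gives about 3.8.

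For 23 of the 35 genes named by rules on single genes, against 13.3% of all genes tested, the GF minus SPF difference was not the same under aCD3 as under isotype (limma, adjusted p under 0.05 over 11071 genes, all 28 libraries). Most of the 35 were chosen for large differences under aCD3, which favours such a result. The fit also takes 1 spread over all 28 libraries, which can understate the error, so the count is a description. The difference between treatments was negative for Mt1 (-4.13), Ifitm3 (-3.63), Mt2 (-2.89), Il17f (-2.74), Ermn (-2.66), Havcr2 (-2.61), Cxcl3 (-2.56), Hlx (-2.38), Il10 (-1.84) and Ifng (-0.78). It was positive for Xcl1 (2.44), Tnfsf14 (2.13), Tespa1 (1.94), Trmt61b (1.71), Cd226 (1.68), Orm2 (1.54), H60b (1.47), Nr3c1 (1.46), Il18bp (1.28), Nr4a3 (1.24), Pln (0.98), Cysltr2 (0.95) and Chn2 (0.82). Over all genes the count of such differences went from 1476 to 30 without GF aCD3 F1, M3 and M4, the 3 libraries that lay near the isotype libraries.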

How the results depend on the processing

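The 949 calls became 872 with a sex term, 895 and 897 with pseudocounts of 0.1 and 5, and 1090 with array weights. They became 4321 on TPM as deposited, 3693 on TPM without Rn45s and histones, 599 with quantile normalization, 1659 with voom, 563 without a low-value filter, 531 with a filter of 5 TPM, 3820 with all 28 libraries and a sex term, 7 among males, 135 without GF F1, M3 and M4, 243 with the GF block numbered 31 to 33 and 1817 with that numbered 52 to 54, and 198 at an absolute log2 fold change of at least 1. The 3820 came from a fit that shares the smaller spread of the isotype libraries and can understate the error. Leaving out single libraries gave 250 (without M4) to 2819 (without M5) calls. The lower end came from leaving out F1, M3 or M4 (277, 306 and 250) and SPF libraries (304 to 378), the upper from M1, M2 or M5 (1688, 2582 and 2819). The 678 genes without overlap became 1502 on TPM as deposited, 1574 without Rn45s and histones, 434 with a filter of 5 TPM, 1705 among males, 1020 without F1, M3 and M4, 1581 and 1728 in the 2 number blocks, and 700 to 1310 (without M5) on leaving out single libraries. The 344 isotype calls became 1852 on TPM as deposited. The 1476 differences between treatments became 425 on TPM as deposited and 30 without F1, M3 and M4. The histone share difference was -1.21 without F1, M3 and M4, and -8.11 to -12.2 without single libraries, with an adjusted p of 0.121 to 0.156 without any 1 SPF library. Without F1, M3 and M4, Foxp3 turned to 0.24 and Mki67 to 0.12, and 11 of the 35 named genes lost their call. The cause was not tested. With the replicate block, over the 4 names the groups share, 2 genes were called under aCD3, 110 under isotype and 810 between treatments. Same-named libraries did not deviate together (correlations of -0.0937 to 0.0213), so the names were not taken as pairs. At 3 reads a gene of 10 kb has 0.128 to 0.228 TPM, and a shorter gene has more. Low genes such as Hlx, Gja1, Cxcl3, Ccl20, Mt2 and Mt3 in GF therefore rest on few reads. The log2 fold changes of such low genes moved with the settings, from -4.34 to -1.15 for Hlx, -4.29 to -0.98 for Gja1, -5.19 to -1.46 for Ermn, -5.92 to -2.38 for Ccl20 and -5.64 to -2.51 for Cxcl3.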
